A study of Sus scrofa with 4 samples.

Results

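Open chromatin was examined at 8 genes of the H3K9 methylation and HP1 system in porcine fetal fibroblasts: the writers SUV39H1, SUV39H2, SETDB1, EHMT1 and EHMT2 and the HP1 genes CBX1, CBX3 and CBX5. The members were chosen by name, and their peaks were those overlapping a RefSeq gene model (Sscrofa11.1) with 10 kb on both sides, called the window below. A placed model was found for 7 of the 8 genes. EHMT1 has a model of 137581 bp on a scaffold that the gene table does not name, so its peaks were not analysed here. The 7 windows held 33 of the 121788 open regions of the series, and the gene table had 19550 placed protein-coding genes in all.

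The study asked how over-expression of the chromatin remodeller BRG1 in donor cells bears on chromatin openness and on cloned embryos. There were 2 libraries of fibroblasts labelled as over-expressing BRG1, with the construct pTK-642-BRG1 (BRG1 1 and BRG1 4), and 2 libraries of cells labelled wild type, with pTK-642 (control 1 and control 4). All 4 came from fetal fibroblasts of skin under serum starvation, and so the controls share both the starvation and the vector name. The labels do not say if BRG1 1 and BRG1 4 are different cultures or clones, nor how strongly BRG1 was expressed, so the spread within a group may be technical. ATAC-seq marks open chromatin by the cuts of the Tn5 transposase, and a peak is a stretch where the cuts exceed the local background.

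Methylation of histone H3 on lysine 9 marks silent heterochromatin. SUV39H1 and SUV39H2 write the trimethyl mark mainly at pericentromeric repeats, SETDB1 writes it at transposable elements and selected genes, and EHMT1 and EHMT2 (also called GLP and G9a) act as a pair that writes the mono- and dimethyl marks in euchromatin. HP1 proteins bind the methylated lysine through a chromodomain and recruit further writers; CBX5 encodes HP1 alpha, CBX1 HP1 beta and CBX3 HP1 gamma. In nuclear transfer, H3K9 trimethylation carried over from the donor nucleus is known, best from the mouse, as a barrier to reprogramming. Peaks do not measure expression or the methylation itself.

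Peaks numbered 96367 in BRG1 1 and 90851 in BRG1 4, against 107475 in control 1 and 105954 in control 4. Depth relative to control 1, read from the lowest background in each list, was 81.2% in BRG1 1, 92.6% in BRG1 4 and 93.5% in control 4. This reading assumes the same caller settings for all 4 libraries, which are not known. BRG1 4 stood apart by wide peaks: the median peak measured 404 bp in BRG1 1 and 541 bp in BRG1 4, whereas it measured 403 bp in control 1 and 396 bp in control 4. The cell type label was checked against marker genes: 12 of 14 fibroblast markers had a peak within 1 kb of an end of the gene model in all 4 libraries, the exceptions being FN1 (1 library) and DCN (none). Of other cell types, 2 of 6 keratinocyte, 2 of 5 endothelial, 3 of 5 immune and 2 of 5 melanocyte markers had such a peak in all 4 libraries, and KRT5, CDH1, PECAM1, CDH5, PTPRC, TYR and SOX10 had none in any. In such bulk libraries, fewer cells with an open region and less opening per cell cannot be told apart.

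**Figure D1:**
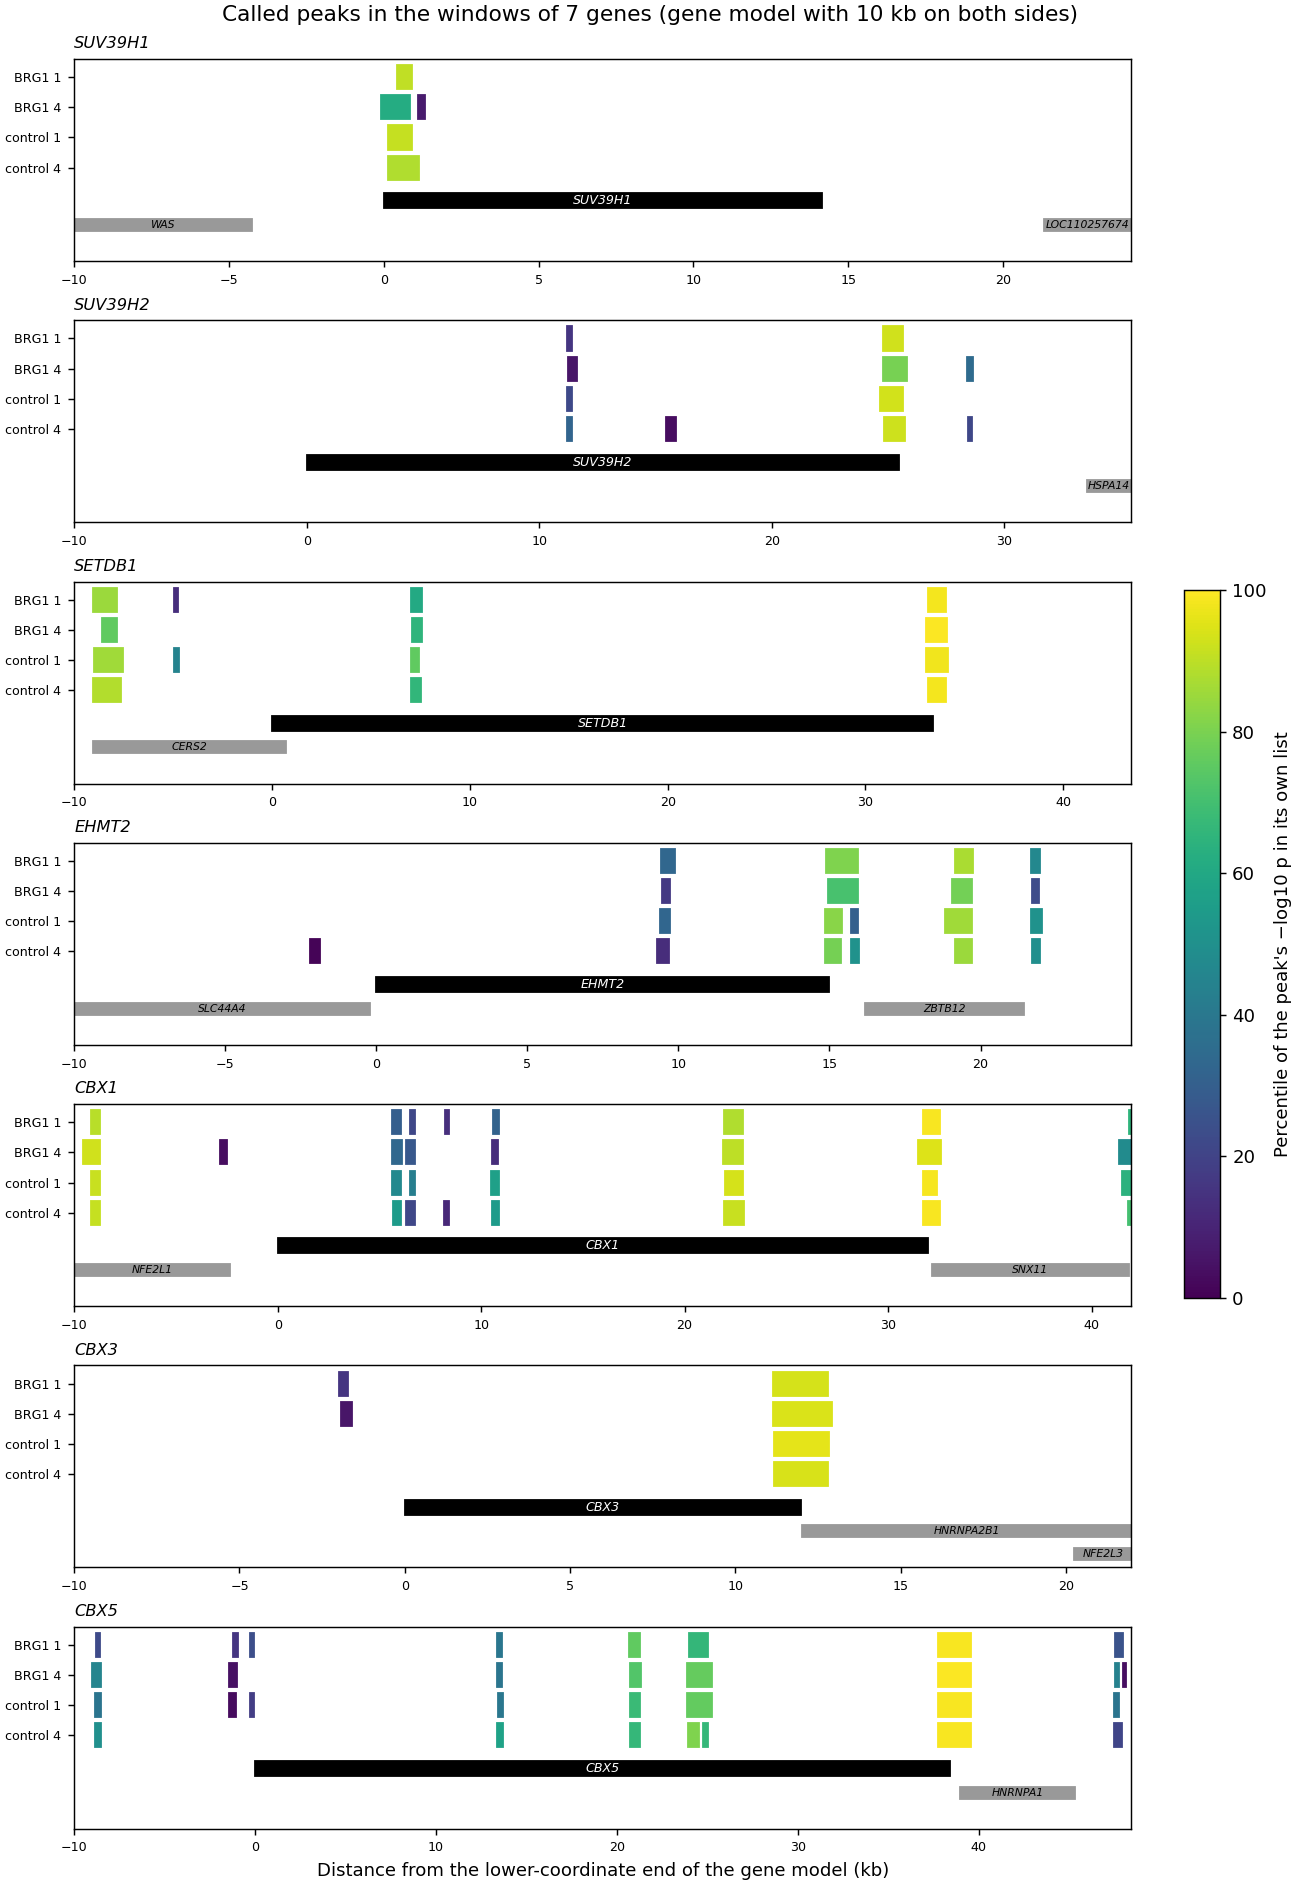
Called peaks of each library in the windows of the 7 genes with a placed model. The horizontal axis is the distance from the lower-coordinate end of the model in kb, each box is a peak coloured by its percentile within its own list, black bars are the gene models and grey bars their neighbours. Every gene has a peak within 1 kb of an end in all 4 libraries, and the peak left of CBX3 is called in BRG1 1 and BRG1 4 and in neither control.

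All 7 genes had a gene-end peak, one within 1 kb of an end of the model, in all 4 libraries, against 68.2% of all protein-coding genes (13334 of 19550), while 25.8% of all genes had such a peak in no library. The gene table gives no strand, so gene ends stand in for transcription starts, and exons or untranslated parts could not be assigned. Of the 33 regions in the windows, 24 were called in all 4 libraries (72.7%), against 61.8% of all regions. Only 1 region of the 33 was called in both BRG1 libraries and neither control (BRG1-only), or 3.03%, against 0.741% of all regions, and 0 were called in both controls and neither BRG1 library (control-only), against 4.41% of all. Over all protein-coding genes, 3.54% had a BRG1-only and 15.9% a control-only region in such a window. Among the members, CBX3 held a BRG1-only region (1 of 7), 0 of 7 held a control-only one, and 6 of 7 held neither, against 81.7% of all genes. With 2 libraries against 2, the smallest p of a two-sided exact permutation test is 0.33, and no difference between the groups could pass 0.05.

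The windows of the 7 genes together held 29 peaks in BRG1 1 and 30 in BRG1 4, against 28 in control 1 and 30 in control 4. The mean was 29.5 ± 0.707 peaks in BRG1 libraries and 29.0 ± 1.41 peaks in controls (SD, n = 2 each), a difference of 0.50 that is smaller than the spread between libraries. The whole lists held fewer peaks in BRG1, at 0.877 of the control mean. The length under peaks in the windows was 17154 bp in BRG1 1 and 20017 bp in BRG1 4, against 18089 bp in control 1 and 17869 bp in control 4. The BRG1 mean over the control mean was 1.03, close to the 0.988 of the whole lists, and it turned to 0.954 without BRG1 4, the library with the widest peaks.

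**Figure D2:**
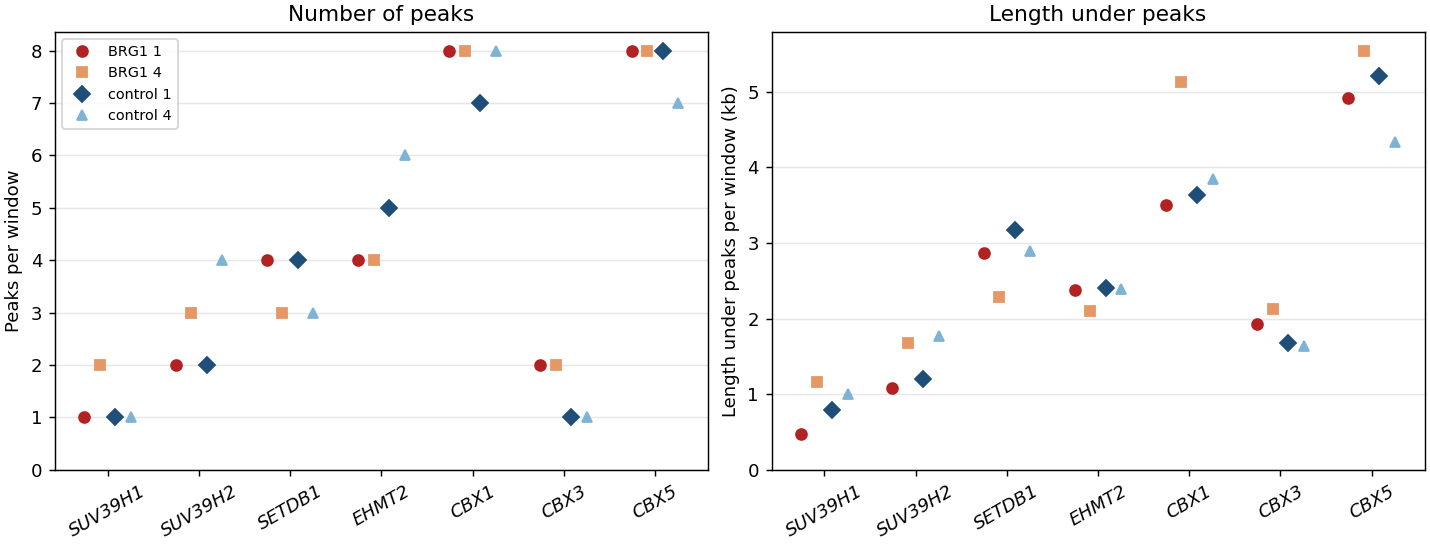
Number of peaks (left) and length under peaks in kb (right) in the window of each gene, with 1 symbol per library. CBX3 has 2 peaks in each BRG1 library and 1 in each control, EHMT2 has 4 in each BRG1 library and 5 and 6 in the controls, and for the other 5 genes the peak numbers of the groups overlap.

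SUV39H1 (gene ID 767626), a writer of the trimethyl mark, lies on chromosome X from 42797309 to 42811457 and had the barest window of the 7. Its only region, from 42797220 to 42798634, held a peak of 119 tags at the summit in BRG1 1 and of 36 tags in BRG1 4, against 139 in control 1 and 106 in control 4. Summit tags, here and below, are not scaled for depth. BRG1 4 was the low library: the peak ranked at percentile 61.7 of its own list there, against 90.5 in BRG1 1, 91.4 in control 1 and 88.1 in control 4. The summit lay 648 to 719 bp inside the model from its lower-coordinate end in all 4 libraries. The peak was 477 bp wide in BRG1 1 and 935 bp in BRG1 4, against 788 bp in control 1 and 1003 bp in control 4, so the widths of the groups overlap. BRG1 4 also had a second weak peak in the same region, at percentile 7.15. No other peak was called in the window of 34149 bp, which reaches into WAS on the lower side.

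SUV39H2 (gene ID 664651), the second enzyme of this pair, lies on chromosome 10 from 46874606 to 46900058. Its strongest peak covered the higher-coordinate end of the model, with the summit 38 to 72 bp inside it. The summit held 169 tags in BRG1 1 and 80 in BRG1 4, against 180 in control 1 and 169 in control 4. The percentiles were 92.9 in BRG1 1 and 79.6 in BRG1 4, against 93.0 in control 1 and 92.5 in control 4, so BRG1 4 was again the low library and BRG1 1 lay with the controls. A weak region deep in the gene body, 11326 bp from the lower-coordinate end, was also called in all 4 libraries, at percentiles of 15.3 in BRG1 1 and 5.57 in BRG1 4, against 22.0 in control 1 and 32.2 in control 4. A region 3063 bp above the model was called in BRG1 4 and control 4, and a gene-body region in control 4 alone.

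SETDB1 (gene ID 100157920), which acts with the corepressor TRIM28 at transposable elements, lies on chromosome 4 from 98259801 to 98293238. Its end peak was among the strongest of every list, at percentiles of 98.4 in BRG1 1 and 99.4 in BRG1 4, against 98.0 in control 1 and 98.2 in control 4. The summit held 340 tags in BRG1 1 and 392 in BRG1 4, against 372 in control 1 and 365 in control 4. Here BRG1 4 was not the low library. The summit lay 296 to 298 bp beyond the higher-coordinate end of the model in the 3 other libraries and at the end itself in BRG1 4. A region 7224 bp inside the lower-coordinate end was also common to the 4 libraries, with 33 tags in BRG1 1 and 34 in BRG1 4, against 56 in control 1 and 39 in control 4. The model overlaps CERS2, a ceramide synthase, by 704 bp, and another shared region lay inside CERS2, 8416 bp below the SETDB1 model. The window had 2862 bp under peaks in BRG1 1 and 2287 bp in BRG1 4, against 3176 bp in control 1 and 2890 bp in control 4. Both BRG1 values lay below both controls, with a mean of 2574 ± 407 bp in BRG1 and 3033 ± 202 bp in control windows (SD, n = 2 each), for which a two-sided exact permutation test gave p = 0.33. The gap lay in the region inside CERS2. Its peak measured 1181 bp in BRG1 1 and 759 bp in BRG1 4, against 1460 bp in control 1 and 1422 bp in control 4. Over the rest of the window the lengths of the groups overlapped.

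EHMT2 (gene ID 100124382), the G9a gene, lies on chromosome 7 from 23977683 to 23992673, among the class III genes of the major histocompatibility complex. Its end peak had 114 tags in BRG1 1 and 72 in BRG1 4, against 129 in control 1 and 115 in control 4. This was the weakest end peak of the group in 3 of the 4 lists, at percentiles of 80.7 in BRG1 1 and 71.0 in BRG1 4, against 82.1 in control 1 and 79.0 in control 4. EHMT2 was the single member whose strongest peak in the window was not at its own end. That peak lay inside ZBTB12, a zinc finger gene 1175 bp away, with 150 tags in BRG1 1 and 92 in BRG1 4, against 155 in control 1 and 145 in control 4.

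The EHMT2 window held 4 peaks in BRG1 1 and 4 in BRG1 4, against 5 in control 1 and 6 in control 4 (two-sided exact permutation p = 0.33). Of all protein-coding genes, 15.0% had fewer peaks in both BRG1 libraries than in both controls, and EHMT2 was the 1 such member of 7. The call is kept at a −log10 q of at least 5, with 4 peaks in each BRG1 library and 5 in each control. It is lost when list lengths are matched. With the strongest 90851 peaks of each list, the length of the shortest, the window held 4 peaks in BRG1 1 and 4 in BRG1 4, against 5 in control 1 and 4 in control 4. With the strongest 45425 it held 2 in every library. Part of the gap came from how a single region was divided into peaks. At the higher-coordinate end, from 23992521 to 23993669, each BRG1 library had 1 peak, of 1042 bp in BRG1 1 and 987 bp in BRG1 4. The same region held 2 peaks in each control, the stronger of 570 bp in control 1 and 539 bp in control 4, with a weaker peak of 228 bp in control 1 and 281 bp in control 4 beside it. Control 4 had 1 further weak peak, inside SLC44A4, at percentile 0.886. The length under peaks in the window was 2383 bp in BRG1 1 and 2106 bp in BRG1 4, against 2402 bp in control 1 and 2387 bp in control 4. BRG1 was thus lower without overlap by only 4 bp between BRG1 1 and control 4. That rests on the weak control 4 peak inside SLC44A4, of 327 bp, without which control 4 would lie below both BRG1 libraries. Lower length in both BRG1 libraries was found for SETDB1 and EHMT2 among the 7 genes, and for 13.5% of all genes. At both members it depended on a region inside a neighbouring gene.

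**Figure D3:**
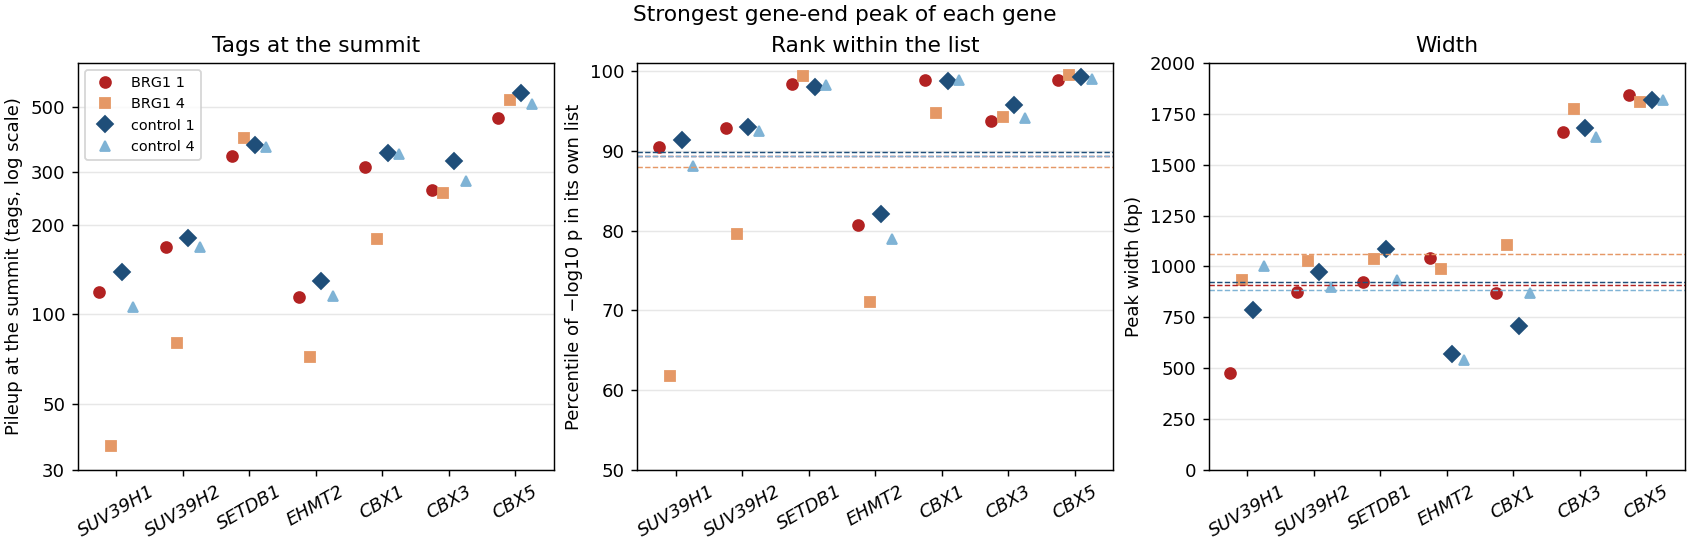
The strongest gene-end peak of each gene, with 1 symbol per library: tags at the summit on a log scale (left), percentile of −log10 p in the library's own list on an axis that starts at 50 (middle) and width in bp (right). Dashed lines in the middle and right panels are each library's median over the 13334 genes with a gene-end peak in all 4 libraries. By percentile, BRG1 4 is lowest at SUV39H1, SUV39H2, EHMT2 and CBX1 and not at SETDB1, CBX3 and CBX5. By tags it is lowest at CBX3 too, with 256 against 261 in BRG1 1. The CBX3 and CBX5 peaks are the widest.

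The HP1 genes had strong end peaks that reached across the gap to the next gene. All 3 lie with their higher-coordinate end close to a neighbour: CBX1 is 222 bp from SNX11, a sorting nexin gene, CBX3 is 49 bp from HNRNPA2B1, and CBX5 is 505 bp from HNRNPA1. HNRNPA1 and HNRNPA2B1 encode abundant RNA-binding proteins of messenger RNA processing. In all 4 libraries a single peak covered the end of the HP1 gene and the facing end of its neighbour. None of the 4 writers had such a peak, and 11.7% of all protein-coding genes did. CBX1 and CBX3 each also lie near a gene of the NFE2 family of leucine zipper factors, NFE2L1 at 2338 bp and NFE2L3 at 8277 bp.

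CBX5 (gene ID 100519426), which encodes HP1 alpha, lies on chromosome 5 from 19446083 to 19484527 and had the highest summit of the group. Its end peak held 457 tags in BRG1 1 and 525 in BRG1 4, against 555 in control 1 and 511 in control 4. The percentiles were 98.9 in BRG1 1 and 99.5 in BRG1 4, against 99.2 in control 1 and 99.0 in control 4. The widths were nearly equal, at 1842 bp in BRG1 1 and 1809 bp in BRG1 4, against 1818 bp in control 1 and 1819 bp in control 4. The position of the summit within this peak differed: it lay 465 to 484 bp inside the model in BRG1 1 and both controls, and 71 bp beyond its end in BRG1 4.

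Further regions were spread through the CBX5 window, which had 8 peaks in BRG1 1 and 8 in BRG1 4, against 8 in control 1 and 7 in control 4. Inside the model, 3 regions were called in all 4 libraries, 13516 bp from the lower-coordinate end and 17311 and 14277 bp from the higher-coordinate end. The region 17311 bp from the end had 84 tags in BRG1 1 and 78 in BRG1 4, against 73 in control 1 and 72 in control 4. Below the model, a weak region at 1077 bp was called in both BRG1 libraries and control 1 and not in control 4, at percentiles of 15.3 in BRG1 1, 4.16 in BRG1 4 and 3.09 in control 1. It becomes a BRG1-only region when the lists are brought to equal length, since the control 1 peak then drops out. Another at 185 bp was called in BRG1 1 and control 1.

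CBX1 (gene ID 100520403), which encodes HP1 beta, lies on chromosome 12 from 24319104 to 24351057. Its end peak had 313 tags in BRG1 1 and 179 in BRG1 4, against 350 in control 1 and 347 in control 4. The percentiles were 98.9 in BRG1 1 and 94.8 in BRG1 4, against 98.8 in control 1 and 98.9 in control 4. The summit was fixed within 17 bp across the 4 libraries, 125 to 142 bp beyond the end of the model and hence in the gap before SNX11. CBX1 had the most regions of any member, with 9 in the window and 7 of them in all 4 libraries. A strong region 9257 bp inside the higher-coordinate end held 118 tags in BRG1 1 and 123 in BRG1 4, against 181 in control 1 and 156 in control 4. At 3 weaker shared regions 5936 to 10675 bp from the lower-coordinate end, summits held 18 to 25 tags in BRG1 libraries and 23 to 42 in controls. The length under peaks in the window was 3507 bp in BRG1 1 and 5132 bp in BRG1 4, against 3629 bp in control 1 and 3850 bp in control 4, so the groups overlap and BRG1 4 alone is high.

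CBX3 (gene ID 100622432), which encodes HP1 gamma, lies on chromosome 18 from 46193138 to 46205114. In human cells the CBX3 and HNRNPA2B1 promoters form a well-known ubiquitous chromatin opening element, used to keep transgenes active. The pig interval between the models carried a peak of 1663 bp in BRG1 1 and 1772 bp in BRG1 4, against 1679 bp in control 1 and 1636 bp in control 4. Over the 13334 genes that had one in every library, the median width of the widest gene-end peak was 908 bp in BRG1 1 and 1063 bp in BRG1 4, against 921 bp in control 1 and 883 bp in control 4. A gene-end peak of at least 1.5 kb in all 4 libraries, a limit set after the values were seen, was found at CBX3 and CBX5 among the 7 genes and at 1.41% of all genes. The summit of the CBX3 peak held 261 tags in BRG1 1 and 256 in BRG1 4, against 329 in control 1 and 281 in control 4. It lay 260 to 269 bp beyond the CBX3 end, inside the HNRNPA2B1 model, in all 4 libraries.

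The BRG1-only region of the group lay 1584 bp below the lower-coordinate end of CBX3, from 46191151 to 46191554. Its peak in BRG1 1 was 265 bp wide with 13 tags over a background of 1.55, and that in BRG1 4 was 350 bp wide with 10 tags over a background of 1.77. These are weak peaks, at percentiles of 15.3 in BRG1 1 and 5.57 in BRG1 4, and the background at each was the lowest of its library. No peak was called there in control 1 or control 4, which means not called at this depth and not closed. The call is lost at a −log10 q of at least 5, where the BRG1 4 peak drops out, and with the strongest 45425 peaks of each list, where every library keeps 1 peak in the window. Because of this region the CBX3 window had 2 peaks in each BRG1 library and 1 in each control (two-sided exact permutation p = 0.33), a direction found without overlap at 1.24% of all genes. The length under peaks was 1928 bp in BRG1 1 and 2122 bp in BRG1 4, against 1679 bp in control 1 and 1636 bp in control 4. CBX3 was the 1 member of 7 with more length in both BRG1 libraries, against 14.1% of all genes. This call rests on the same weak region. The end peak alone measured 1663 bp in BRG1 1 and 1772 bp in BRG1 4, against 1679 bp in control 1 and 1636 bp in control 4, so the groups overlap there.

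**Figure D4:**
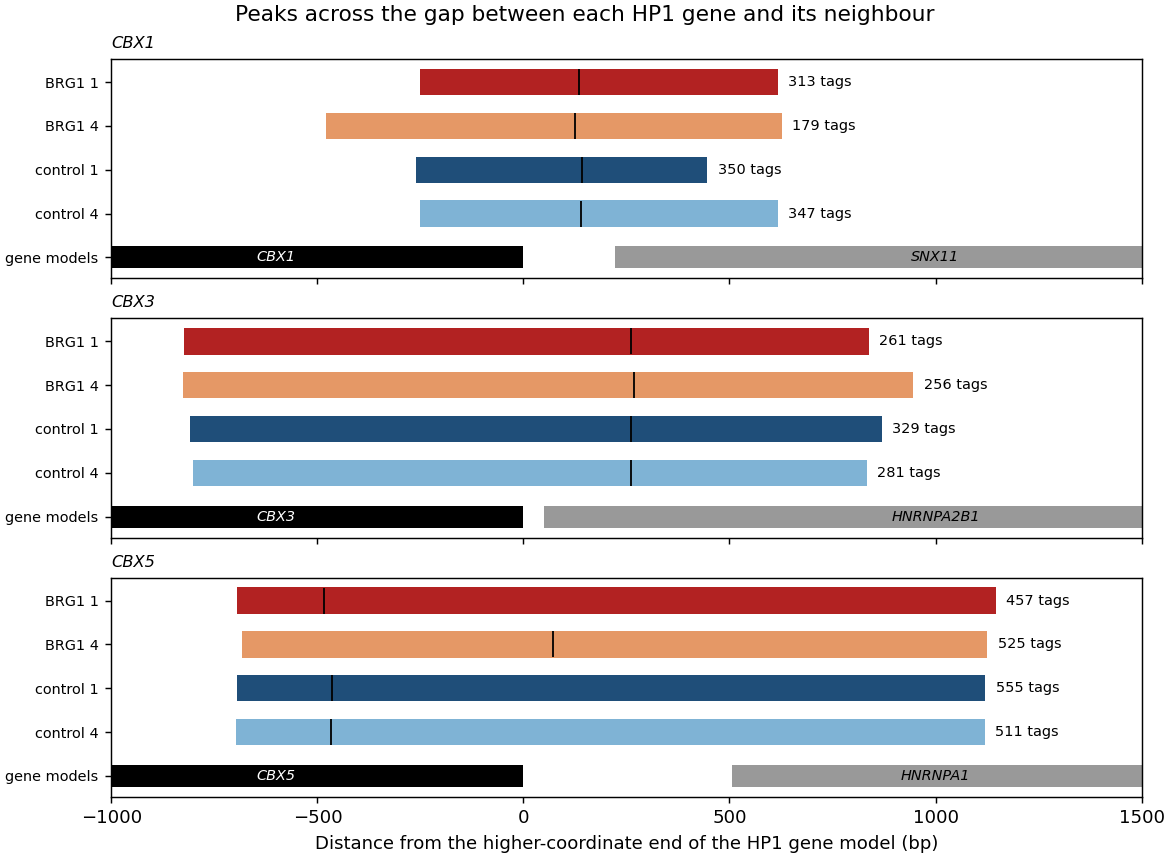
The end peak of each HP1 gene on a common scale. The horizontal axis is the distance in bp from the higher-coordinate end of the HP1 gene model, coloured bars are the peaks with their summits as black ticks and their summit tags printed beside them, and the bottom row shows the facing gene models. Each peak covers both facing ends in all 4 libraries, and the CBX5 summit of BRG1 4 lies to the right of those of the other libraries.

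Across the 7 genes, the ranks of the end peaks fell into sets. SETDB1, CBX1, CBX3 and CBX5 ranked at percentile 90 or more in all 4 libraries (4 of 7 genes, against 5160 of all 19550 protein-coding genes, or 26.4%). Only 13334 of the 19550 had an end peak in every library, as all 7 members did, so the share among those is higher. SUV39H1, SUV39H2 and EHMT2 lay below it in at least 1 library. The end peak ranked lowest in BRG1 4 at SUV39H1, SUV39H2, EHMT2 and CBX1, which is 4 of 7, against 47.7% of the 13334 genes that had one in every library; both this split and percentile 90 were chosen after the values were seen. The share of the members is thus near that of all genes. BRG1 4 also had the widest peaks and the shortest list, and the part of these in the ranks was not tested.

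Between genes, the mean share of the window under peaks over the 4 libraries was highest at CBX5, with 8.42% in BRG1 1 and 9.47% in BRG1 4, against 8.92% in control 1 and 7.42% in control 4. CBX1 was above it in BRG1 4, at 9.88%, and nearly level with it in control 4, at 7.41%. These means were 8.56% at CBX5, 7.76% at CBX1, 6.63% at EHMT2, 5.76% at CBX3, 5.25% at SETDB1, 3.14% at SUV39H2 and 2.51% at SUV39H1. In this order the only neighbours whose ranges over the 4 libraries did not overlap were SETDB1 and SUV39H2. Within each library SUV39H2 also lay above SUV39H1, at 2.37% in BRG1 1 and 3.68% in BRG1 4, against 2.64% in control 1 and 3.89% in control 4. The lowest was SUV39H1, with 1.40% in BRG1 1 and 3.40% in BRG1 4, against 2.31% in control 1 and 2.94% in control 4. The median over all genes was 3.63% in BRG1 1 and 4.16% in BRG1 4, against 3.91% in control 1 and 3.77% in control 4, so that SUV39H1 and SUV39H2 lay below the other members and near or under the median gene. The gene closest to each member in this share over the 4 libraries was GZMH for SUV39H1, XPNPEP2 for SUV39H2, ATP2A3 for SETDB1, RAMP1 for EHMT2, TXNIP for CBX1, TGIF2 for CBX3 and HOXD12 for CBX5. The mean absolute differences ran from 0.0822 points for CBX3 to 0.168 points for CBX5.

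Most of the shared regions did not lie at the ends of the members' own models. The windows measured 31977 to 58445 bp, so most of each lay over 1 kb from both ends. The same share over all genes was not taken. Of the 24 regions in all 4 libraries, 17 had their summit over 1 kb from both ends of the member's model, 10 of them inside the model and 7 outside, of which 3 were inside another gene. Some of those outside lay within 1 kb of an end of a neighbour, namely CERS2, ZBTB12 and SNX11. The summit of a shared region moved by a median of 38.0 bp across the 4 libraries, against 43.0 bp over all 75244 regions called in all libraries. It moved by at most 100 bp in 19 of the 24 (79.2%), against 78.7% of all. The exceptions were the end peaks of SETDB1 and CBX5, the inner region of CBX1 at 9257 bp, and the outermost regions of the CBX1 and CBX5 windows.

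The nearest control-only regions lay outside the 10 kb windows of all 7 genes. They were 10217 bp above CBX5, 12513 bp above SUV39H1 and 22601 bp above CBX3, and over 100 kb from the other 4. The first 2 are counted when the flank is widened to 20 kb. Apart from the region at CBX3, the nearest BRG1-only region lay 99273 bp from CBX1, and farther from the others.

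Other genes of H3K9 methylation were taken from a list of 41, of which 39 matched the gene table. A gene-end peak in all 4 libraries was found at 33 of the 39, against 68.2% of all genes: 9 of 12 writers and their partners, 9 of 10 erasers and 15 of 17 readers and HP1 partners. KDM4A, an H3K9 demethylase, had end peaks at percentiles of 99.7 in BRG1 1 and 99.9 in BRG1 4, against 99.8 in control 1 and 99.7 in control 4. The 6 genes without one in every library were PRDM2, MECOM, PRDM16, UHRF1, SMCHD1 and PHF8. At UHRF1, a reader of H3K9 methylation that also recruits DNA methyltransferase, the nearest peak lay 983 bp from an end in BRG1 1 and 1045 bp in BRG1 4, against 1248 bp in control 1 and 1196 bp in control 4. The call in BRG1 1 alone therefore rests on the 1 kb limit. PHF8, a demethylase, had a strong peak 2167 to 2236 bp from an end in all 4 libraries. At SMCHD1, which acts in X inactivation, control 1 alone had no peak within 1 kb of an end.

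BRG1-only regions lay in the windows of 2 of the 39 genes, against 3.54% of all: MECOM and PRDM16, which encode PR domain proteins. Control-only regions lay in the windows of 8 of the 39, against 15.9% of all: MECOM, PRDM16, MPHOSPH8, KDM4A, CDYL, CDYL2, ATRX and RBL1. MECOM and PRDM16 have long windows with 47 and 16 regions, and are counted in both directions. Fewer peaks in both BRG1 libraries than in both controls were found for 9 of the 39, against 15.0% of all genes, and more peaks for 0 of the 39, against 1.24%. By length under peaks the directions were balanced. Less length in both BRG1 libraries was found for 5 of the 39, against 13.5% of all genes: MPHOSPH8, MORC2, PHF2, CDYL2 and ATRX. More length was found for 6 of the 39, against 14.1% of all genes: KDM7A, CHAF1A, CHAF1B, LBR, LRIF1 and ORC1. ATRX, a remodeller that loads histone H3.3 into heterochromatin, had 3 peaks in BRG1 1 and 3 in BRG1 4, against 6 in control 1 and 6 in control 4, with 3 control-only regions. MPHOSPH8, the H3K9 methylation reader of the HUSH silencing complex, had 1 peak in BRG1 1 and 1 in BRG1 4, against 3 in control 1 and 3 in control 4. The groups do not overlap at ATRX and MPHOSPH8, yet both genes kept their gene-end peak in all 4 libraries. The longer control lists move with these counts, and the part of list length was not tested for the 39 genes.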

How the data were processed

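The authors deposited 1 peak list per library, with replicates not pooled. FastQC, BWA, Bowtie, SAMtools and MACS2 and the build Sscrofa11.1 are named per the submitters' processing notes, with no role or order. No source used here gives the Tn5 shift, the duplicate handling or the caller settings, each of which can alter peak number and width. In the deposited lists the fold is a ratio of summit pileup to local background, −log10 p-values and q-values are those of the caller within each library, and the score is 10 times the −log10 q-value. They were used only within their own list.

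Percentiles are ranks of −log10 p in a list. Summit tags are the whole-number pileup that solves fold and p together under the formulas of MACS2 (tolerance 0.01), for all but at most 12 peaks of a list. They were not scaled and not compared between libraries by a test. Absolute depth is unknown. Peaks of the 4 lists sharing 1 bp or more formed a region. Gene models were those of RefSeq on Sscrofa11.1, without strand or sequence. The planned gene-start window and motif search were therefore replaced by gene ends and not run.

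Members and lists were chosen with earlier results of these data known, so no p is given for sums over members. Each gene's peak number and covered length were compared over libraries with an exact two-sided permutation test (scipy 1.17.1). Named were all members, their neighbours, the gene closest in share of the window under peaks, and list genes lacking an end peak in a library or holding a private region; other genes named were chosen after their values were seen. Region calling was tested on simulated data. Settings varied were the q threshold, list length, flank, overlap and libraries left out.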

Additional observations from a re-analysis of the deposited data

How the results depend on the processing

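The count of 7 genes with a gene-end peak in all libraries held under every alternative run for it. The differences between groups in the windows were small and did not keep their direction. The difference in peak number (0.50) turned to −1.0 at a −log10 q of at least 5, −1.5 with the strongest 45425 peaks of each list, −0.50 with a flank of 2 kb and −1.5 with 20 kb, and moved to 3.0 with the strongest 90851, the length of the shortest list. The ratio of length under peaks turned to 0.999 with the strongest 45425. BRG1-only regions came to 0 at a −log10 q of at least 5 and with the strongest 45425, and to 2 with the strongest 90851; control-only regions came to 2 with a flank of 20 kb. Leaving out each library gave −0.50 to 1.5 peaks, ratios of 0.954 to 1.11, 1 to 3 BRG1-only regions (3 without BRG1 1) and 0 to 2 control-only regions (2 without control 1). A private call then needs 1 library fewer, and the cause was not otherwise tested. With replicate number as a block the values were 0.50 and 1.03, with differences of 1 and 0 peaks within numbers 1 and 4. The correlation of deviations between libraries with 1 number was −0.161 across 19550 windows, and crossing the numbers, added after seeing the data, gave the same means by construction. The planned gene-start window and motif matches were not run.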
